A study of Mus musculus with 6 samples.

Results

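The genes described here carry glucose into the heart muscle cell, break it down to pyruvate and lactate, and store it as glycogen or release it again. They were chosen by name: a list of 44 genes was matched to the gene symbols of the array's annotation, and 40 of them had a row among the 23185 genes measured. Gapdh, Eno1, Gpi1 and Pfkfb1 had no row under their symbols and were not analysed here. Rows without a symbol were left out, so the array may still have measured some of these genes. The measurements came from 6 Affymetrix arrays of heart samples, 3 labelled irisin knockout and 3 wild type. The knockout mice were FVB animals, an inbred albino strain, grown from zygotes injected with Cas9 mRNA and several guide RNAs. Their littermates served as the wild type group, and both groups ate standard chow for 24 weeks, with 10% of it fat and 70% carbohydrate. Age at sampling, the stretch of Fndc5 removed and how many founders were bred were not stated in the labels. The labels speak of cardiomyocytes in one field and of myocardium in another, and nothing ties each array to an animal of its own. Should arrays share an animal, the p-values would reflect technical spread alone.

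Glucose enters a cardiomyocyte through facilitative transporters, of which the one encoded by Slc2a4 moves to the surface when insulin acts and the one encoded by Slc2a1 resides there at rest. Hexokinase traps the sugar as glucose 6-phosphate, which either runs down glycolysis or, after isomerisation by phosphoglucomutase, is activated with UTP and built into glycogen. Glycogen synthase is restrained by the GSK3 kinases, while glycogen phosphorylase is switched on by phosphorylase kinase, a complex of alpha, beta, gamma and calmodulin subunits. The working heart draws mostly on fatty acids and keeps glycogen as a rapidly used reserve.

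Values are RMA summaries on a log2 scale, so a difference of 1 is a doubling, and differences are knockout minus wild type. Brightness depends on the probes, so levels are compared between groups for 1 gene and never between genes. The targeted gene Fndc5 read 7.68, 5.49 and 5.45 in knockout replicates 1, 2 and 3, against 8.42, 8.40 and 7.83 in wild type. For Fndc5, knockout replicate 1 thus lay far nearer to the wild type arrays than the other knockout arrays did. Over all genes the knockout arrays correlated at 0.991 to 0.993 with each other and at 0.959 to 0.972 with wild type arrays. Calls lost without knockout replicate 1 are named with the genes below. By limma at an adjusted p under 0.05, 10.4% of all genes were higher in the knockout and 6.18% lower. Of the cell type markers, 6 of 10 fibroblast genes and 6 of 8 smooth muscle genes were lower by this test. Their list means were 6.20 to 6.36 against 6.90 to 7.82 and 4.49 to 4.83 against 5.81 to 7.68. Among endothelial genes 3 of 8 were lower, among pericyte genes 3 of 6 were higher, and 1 of 9 macrophage genes was lower. The pericyte list was divided: Cspg4 (-0.67) and Notch3 (-0.65) lay below wild type without overlap but were not called, and Pdgfrb differed by 0.05. Cardiomyocyte genes were bright in both groups (list means 10.83 to 10.89 in knockout and 10.86 to 10.96 in wild type), with 1 of 10 higher and 0 lower. By limma 0 of 6 adipocyte and 0 of 3 blood genes passed, with 1 of each at an unadjusted p under 0.05. Wild type replicate 2 read highest in all 3 blood genes: 7.41 for Alas2, 3.58 for Slc4a1 and 2.72 for Hbb-bs. The other arrays reached at most 5.14, 2.20 and 1.70. All 10 skeletal muscle genes lay at or below 2.76 on every array, and their list means were 1.47 to 1.57 in knockout and 1.66 to 1.77 in wild type. The part of the shifts in vessel and connective tissue markers in the results below was not tested, and in such bulk samples fewer cells of a type and less RNA per cell cannot be told apart.

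Of the 40 genes, 12 were higher in the knockout and 2 lower, and 26 did not pass the test. The genes that rose were the transporters Slc2a1, Slc2a4 and Slc2a12, the enolase Eno3, and 8 genes of glycogen metabolism. Those that fell were Pfkfb2 and Phka1. The test was limma across all 23185 genes with Benjamini-Hochberg adjustment at 0.05, under which 10.4% of all genes were higher and 6.18% lower, 16.6% in all. The count of higher members ran from 8 without knockout replicate 2 to 14 without wild type replicate 1, and was 9 without knockout replicate 1. Lower members numbered 1 without any 1 of the knockout arrays and 4 without wild type replicate 2. The 3 knockout values stood above all 3 wild type values for 16 of the 40 genes and below them for 4, where the shares over all genes were 17.2% and 17.0%. Their median difference was 0.23, against -0.05 over all genes.

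**Figure D1:**
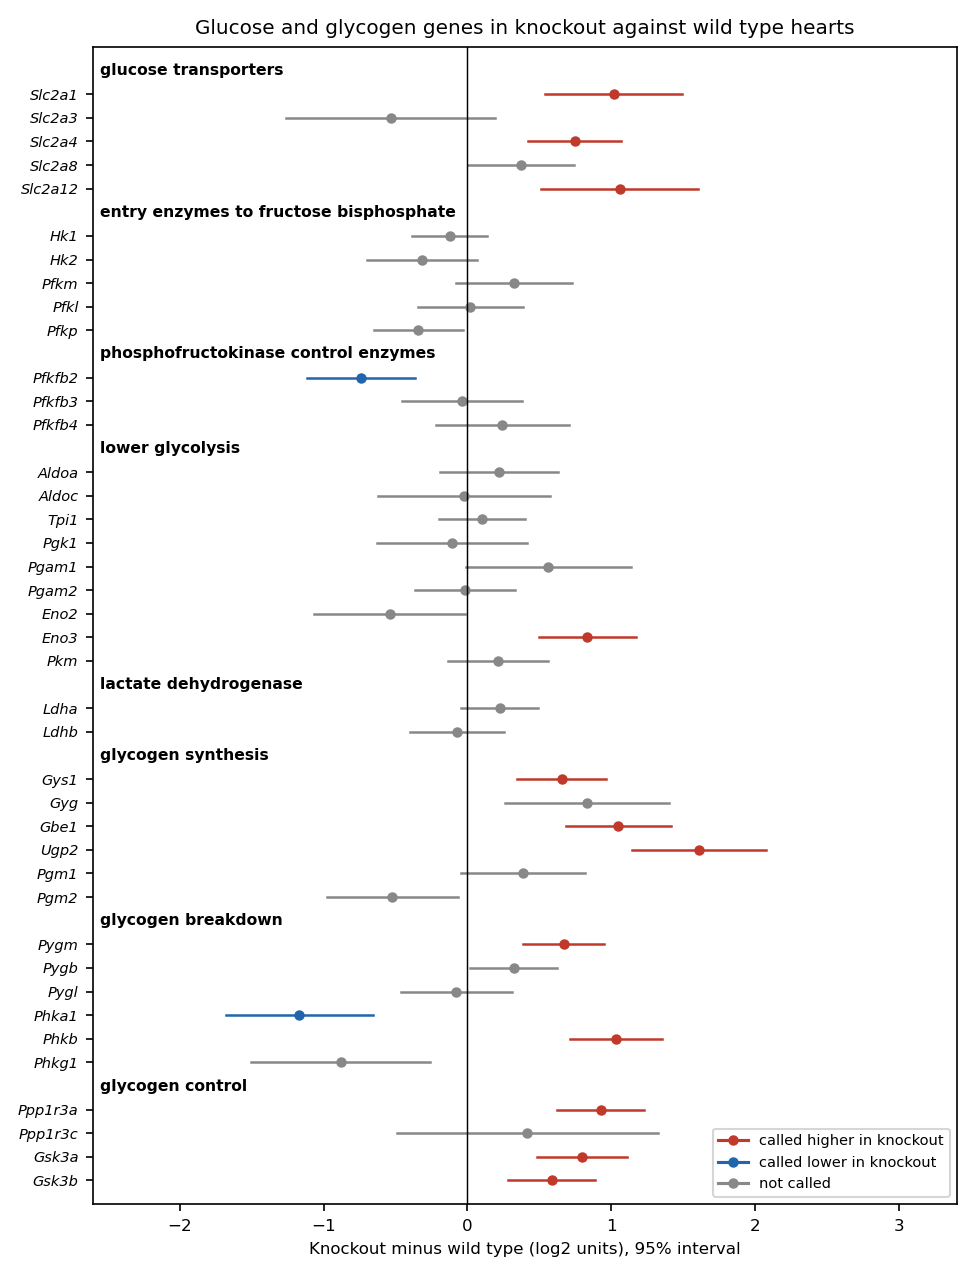
Difference between knockout and wild type hearts for each of the 40 genes, by role, in log2 units. Points are the fitted differences, bars the 95% intervals, red marks the 12 genes called higher, blue the 2 called lower and grey the 26 not called. Of the 16 glycogen genes 8 were called higher and 1 lower (56.2%, against 42.0% for genes of like mean level). Among the 5 transporters 3 were called, all of them higher (60.0%, against 29.9% called in either direction for genes of like level). The 16 glycolytic and lactate enzymes held 1 called gene, Eno3, where the share for genes of like level was 37.0%.

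These genes are brighter than most, and bright genes were called more often. Over all rows, values within a knockout array had an SD of 2.12 to 2.15 and a median of 2.13 to 2.16. Within a wild type array the SD was 2.00 to 2.06 and the median 2.23 to 2.28. The part of this whole-array difference in the rises of bright genes was not tested. With all genes split by mean level into 10 bands of equal size, the brightest band held 24 of the 40, and in that band 45.7% were called and the median difference was 0.27. Averaged over the bands to which the members belong, 37.1% of genes were called, so the members' 35.0% was about the share for genes of like level. The roles differed within that total. Glycogen genes were called in 9 of 16 cases (56.2%, against 42.0% for their bands) and transporters in 3 of 5 (60.0% against 29.9%). Of 16 glycolytic and lactate enzymes, 1 was called (6.25%, against 37.0% for their bands). This comparison by level was chosen after the values were seen, and the shares are given as a description. Spread between the arrays of a group was wider in wild type: its SD was the larger for 34 of the 40 genes (85.0%), against 62.9% of all genes.

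**Figure D2:**
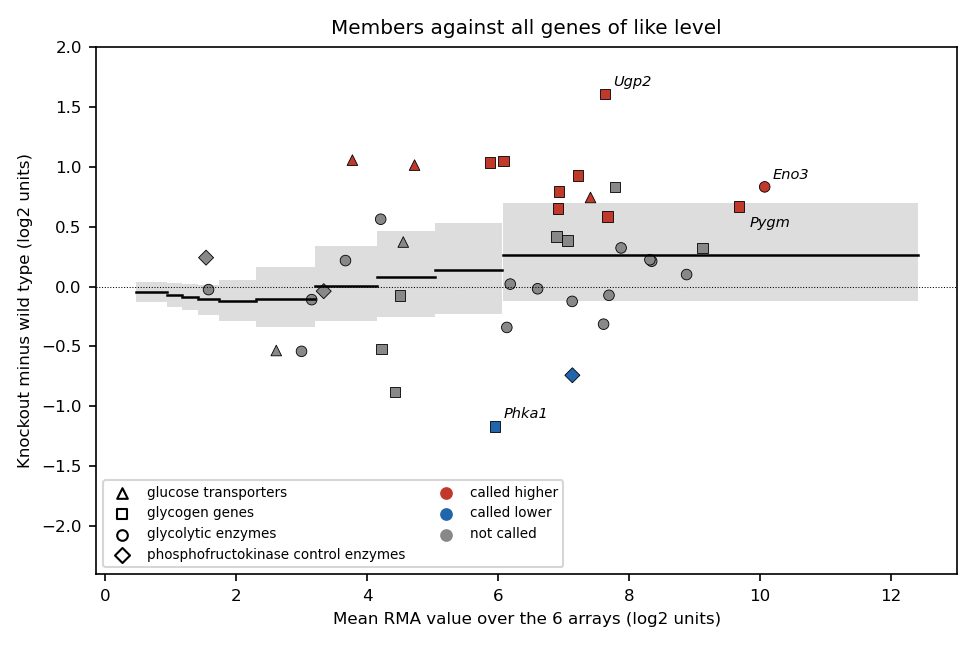
Difference (knockout minus wild type, log2 units) against the mean value over the 6 arrays for the 40 genes. Black lines are the median of all genes in each of 10 bands by level and grey boxes run from their lower to their upper quartile. Ugp2 (1.61) lies highest and Phka1 (-1.17) lowest, and most circles, the glycolytic enzymes, lie close to or below the line of their band.

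For 38 of the 40 genes the set of RefSeq promoter windows used here had an entry on GRCm38.p6, the C57BL/6J reference. Each window runs from 250 bases before the start of transcription to 50 after it. The set held no entry for Slc2a3 and Slc2a4. The windows below belong to Ugp2 and Gbe1, which had the largest rises among the 16 glycogen members, to Ppp1r3a, whose product is found in striated muscle, to Phka1, which fell, and to Ldha, a glycolytic gene that was not called. Each is given 5′ to 3′ on the strand of the gene. Capitals mark ACGTG on either strand, 1 form of the core bound by hypoxia-inducible factors. In Ppp1r3a they mark the consensus of MEF2, a family of muscle transcription factors. The other form of that core, GCGTG, is not marked.
Ugp2 (chr11:21371218-21371517, minus strand): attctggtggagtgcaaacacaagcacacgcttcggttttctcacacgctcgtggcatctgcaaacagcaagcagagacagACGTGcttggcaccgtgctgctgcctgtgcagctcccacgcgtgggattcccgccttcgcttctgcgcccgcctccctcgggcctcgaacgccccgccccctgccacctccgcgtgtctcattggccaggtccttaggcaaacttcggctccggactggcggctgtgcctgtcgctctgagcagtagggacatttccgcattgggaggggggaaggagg
Gbe1 (chr16:70313699-70313998, plus strand): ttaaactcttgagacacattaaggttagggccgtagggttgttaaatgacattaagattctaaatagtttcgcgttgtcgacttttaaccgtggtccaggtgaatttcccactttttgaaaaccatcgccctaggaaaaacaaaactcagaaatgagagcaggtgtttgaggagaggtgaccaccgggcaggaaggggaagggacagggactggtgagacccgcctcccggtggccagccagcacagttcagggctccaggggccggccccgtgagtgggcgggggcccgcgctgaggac
Ppp1r3a (chr6:14755225-14755524, minus strand): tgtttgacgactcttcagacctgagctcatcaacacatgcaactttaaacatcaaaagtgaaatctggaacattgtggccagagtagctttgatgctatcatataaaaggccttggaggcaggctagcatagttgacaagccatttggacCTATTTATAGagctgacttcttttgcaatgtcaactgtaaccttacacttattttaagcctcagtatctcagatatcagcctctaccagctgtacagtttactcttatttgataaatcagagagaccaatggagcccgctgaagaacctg
Phka1 (chrX:102644197-102644496, minus strand): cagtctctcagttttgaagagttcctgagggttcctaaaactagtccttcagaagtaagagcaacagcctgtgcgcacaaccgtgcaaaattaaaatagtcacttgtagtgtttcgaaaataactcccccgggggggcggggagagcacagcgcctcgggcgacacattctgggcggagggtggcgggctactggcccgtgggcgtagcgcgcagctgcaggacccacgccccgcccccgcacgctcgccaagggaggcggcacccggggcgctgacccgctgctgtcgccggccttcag
Ldha (chr7:46845554-46845853, plus strand): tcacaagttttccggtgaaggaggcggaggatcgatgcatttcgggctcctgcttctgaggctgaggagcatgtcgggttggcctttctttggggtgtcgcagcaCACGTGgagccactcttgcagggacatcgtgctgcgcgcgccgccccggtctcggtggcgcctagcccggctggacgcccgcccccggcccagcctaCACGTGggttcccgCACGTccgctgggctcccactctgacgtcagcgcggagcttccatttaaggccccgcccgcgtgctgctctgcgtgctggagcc
The Ldha window holds CACGTG at 2 places, each of which contains ACGTG on both strands, and a further ACGTG on the minus strand. The Ugp2 window holds ACGTG at 1 place and those of Gbe1 and Phka1 at 0. Ugp2 and Ldha each have another window, not shown, that holds ACGTG at 0 places. Over all members ACGTG was found in at least 1 window of 20 of 38 genes (52.6%), against 23.8% of the 17452 tested genes with a window and 19.6% of all 32851 windows. It was present in 3 of the 11 higher genes with a window, 1 of the 2 lower ones and 16 of the 25 not called. ACGTG was found in 9 of 16 glycolytic and 8 of 16 glycogen genes. CACGTG was found in 6 of 38 genes, against 9.19% of tested genes, and in 0 of the 11 higher ones. The MEF2 consensus was found in 2 of 38, Ppp1r3a and Pgam2, against 3.05% of tested genes. GCGTG, searched like the other motifs on both strands, was in 24 of 38 members (42.3% of tested genes). Its matches numbered 5 in the Ugp2 window shown, 2 each in those of Phka1 and Ldha, and 0 in those of Gbe1 and Ppp1r3a. It was present in 7 of the 11 higher genes, 2 of the 2 lower ones and 15 of the 25 not called. The motif CCAAT was in 21 (41.9%). The motif TATAAA was in 5 (14.1%). The motif GGGCGG was in 24 (49.8%). A match describes the letters of a window and not a site in use, and these windows come from a strain other than FVB.

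Transporters were higher in the knockout for 3 of 5 genes, against 10.4% of all genes and 19.3% for their bands by level. Slc2a4, the insulin-responsive transporter of muscle and fat, read 7.75, 7.91 and 7.69 in knockout and 6.91, 7.28 and 6.92 in wild type. The groups did not overlap, and the 1.67-fold rise (0.74, SE 0.14, limma adjusted p = 0.00925) passed under all 15 alternatives, with adjusted p from 0.00466 to 0.0475. Slc2a1, the basal transporter that is also found in endothelium and other dividing or barrier cells, read 4.99, 5.45 and 5.24 in knockout against 4.65, 3.90 and 4.10 in wild type. All knockout arrays were again above all wild type arrays, by 2.02-fold on average (SE 0.21, adjusted p = 0.0121 in limma). Its adjusted p over the alternatives ran from 0.00275 to 0.0578, the highest value, and the loss of the call, being in the fit without knockout replicate 2. Slc2a12, a transporter present in heart and skeletal muscle, stood at 4.46, 4.39 and 4.05 in knockout and 3.25, 3.74 and 2.75 in wild type. It rose 2.08-fold (SE 0.24, limma adjusted p = 0.0183), a call that was lost without knockout replicate 1 (0.0748) or 2 (0.0761), where the alternatives reached from 0.00494 to 0.0761. Slc2a8, an intracellular transporter, differed by 0.37 with groups that did not overlap, and Slc2a3, the transporter of neurons and blood cells, by -0.53 with groups that did. Neither passed (adjusted p 0.167 and 0.318). For Slc2a3 wild type replicate 2 stood apart at 3.71, against 2.52 and 2.41 in the other wild type arrays and 2.11 to 2.56 in knockout.

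The enzymes that commit glucose to glycolysis were not called. Hk1, the hexokinase found in most tissues, read 7.03, 7.10 and 7.07 in knockout and 7.08, 7.20 and 7.30 in wild type (difference -0.12, 95% interval -0.39 to 0.14). Hk2, the insulin-regulated hexokinase of muscle, read 7.14, 7.57 and 7.64 in knockout and 7.56, 7.88 and 7.86 in wild type (difference -0.31, -0.70 to 0.07). In both genes the groups overlapped by a narrow margin. Pfkm encodes the muscle subunit of phosphofructokinase, the main control point of glycolysis, and read 7.84, 8.25 and 8.02 in knockout against 7.66, 8.03 and 7.46 in wild type. Its difference of 0.32 had a 95% interval of -0.08 to 0.72. The liver subunit Pfkl differed by 0.02 and the platelet subunit Pfkp by -0.34. All Pfkp values in knockout (5.85 to 6.04) were below those in wild type (6.16 to 6.52), but the adjusted p was 0.13 in limma.

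Pfkfb2 was the exception near this control point. It encodes the heart form of the bifunctional enzyme that makes and degrades fructose 2,6-bisphosphate, an activator of phosphofructokinase. The knockout arrays held 6.83, 6.75 and 6.71 and the wild type arrays 7.31, 7.86 and 7.34, without overlap. The fall was 1.67-fold (-0.74, SE 0.16, limma adjusted p = 0.0169). The call was lost without any 1 knockout array (0.0521, 0.0671 and 0.0637 without replicates 1, 2 and 3), within a range of 0.00712 to 0.0671 over the alternatives. Pfkfb3 and Pfkfb4, the forms best known from proliferating and hypoxic cells, differed by -0.04 and 0.24 with overlapping groups. Pfkfb4 was dim, at or below 1.99 on every array, and Pfkfb3 read 3.11 to 3.64.

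In lower glycolysis 1 of 9 genes passed, where 16.6% of all genes did. Eno3 encodes the beta subunit of enolase, the form of adult striated muscle, and read 10.44, 10.60 and 10.41 in knockout against 9.64, 9.90 and 9.42 in wild type. The groups were well separated, with a 1.78-fold rise (0.83, SE 0.15, limma adjusted p = 0.00673) that passed in all 15 alternatives (0.00381 to 0.0367). Eno2, the neuronal enolase, differed by -0.54 with overlapping groups (adjusted p = 0.156), and passed as lower without wild type replicate 2 (-0.77, adjusted p = 0.0308, over a range of 0.0308 to 0.411). The other muscle form in this stretch, the phosphoglycerate mutase Pgam2, read 6.50, 6.71 and 6.57 in knockout and 6.58, 6.88 and 6.37 in wild type, a difference of -0.02 (95% interval -0.37 to 0.33). Pgam1, the mutase of most other tissues, differed by 0.56 (adjusted p = 0.18) and passed as higher without knockout replicate 3 (0.84, 0.0392, over a range of 0.0392 to 0.439).

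The remaining enzymes down to lactate lay close together in the groups. Pkm, the pyruvate kinase of muscle and most other tissues, read 8.30, 8.62 and 8.43 in knockout against 8.38, 8.36 and 7.98 in wild type. Its difference of 0.21 had a 95% interval of -0.14 to 0.56, and Tpi1, triose phosphate isomerase, differed by 0.10 (-0.20 to 0.40). Ldha, the lactate dehydrogenase subunit that prevails in fast muscle, stood at 8.46, 8.42 and 8.40 in knockout, all above the wild type values of 8.06, 8.31 and 8.25, yet its difference of 0.22 did not pass (adjusted p = 0.253). Ldhb, the subunit that prevails in heart, read 7.54, 7.75 and 7.67 in knockout and 7.61, 7.98 and 7.59 in wild type (difference -0.07, adjusted p = 0.793). Aldoa, Aldoc and Pgk1, which encode aldolases and phosphoglycerate kinase, differed by 0.22, -0.03 and -0.11 with overlapping groups. Aldoc was dim, at or below 2.20 on every array. Aldoa (3.42 to 4.09) and Pgk1 (2.85 to 3.77) were not bright either, with array medians of 2.13 to 2.28. How well these rows report their genes was not tested. RefSeq lists pseudogenes named after Pgk1, Pgam1, Aldoa, Ldha and Ldhb, so probes of these genes may be shared with near copies, and whether they are was not tested.

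Of the 6 genes that build glycogen, 3 were higher in the knockout, and Ugp2 had the largest difference of all 40 members. The share higher was 10.4% over all genes and 34.5% in the brightest band by level, which held all of the 6 but Pgm2. Ugp2 encodes UDP-glucose pyrophosphorylase, which makes the activated glucose that glycogen synthase uses. It read 8.64, 8.40 and 8.27 in knockout and 7.27, 6.70 and 6.51 in wild type and the groups were far apart, wild type replicate 1 being the nearest to the knockout. The rise was 3.05-fold (1.61, SE 0.20, limma adjusted p = 0.00173), a difference exceeding that of 99.4% of all genes, and it passed in all 15 alternatives (0.000664 to 0.0118). Gbe1, the branching enzyme, read 6.55, 6.63 and 6.62 in knockout against 5.87, 5.52 and 5.27 in wild type, a 2.07-fold rise without overlap (SE 0.16, adjusted p = 0.00355). The knockout arrays lay closer together (SD 0.05) than the wild type arrays (SD 0.30), and the call held in all 15 alternatives (0.00144 to 0.0218).

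Gys1, the muscle glycogen synthase, read 7.30, 7.29 and 7.14 in knockout and 6.45, 6.82 and 6.49 in wild type. It rose 1.57-fold (0.65, SE 0.14, limma adjusted p = 0.0132). That call was lost after quantile normalization (0.43, adjusted p = 0.0698) and without knockout replicate 1 (0.0561) or 2 (0.0594), over a range of 0.00591 to 0.0698. Gyg, glycogenin, primes new glycogen particles and stood at 8.32, 8.24 and 8.05 in knockout against 7.98, 7.23 and 6.90 in wild type. Its difference of 0.83 missed the threshold (adjusted p = 0.056) although the groups did not overlap, and it passed in 7 of the 15 alternatives (0.00298 to 0.164), most clearly without wild type replicate 1 (1.13). The phosphoglucomutases differed in sign: 0.39 for Pgm1 (entrez gene 72157, once named Pgm2) and -0.52 for Pgm2 (entrez gene 66681, once named Pgm1), both with overlapping groups and neither called. Pgm2 passed as lower without wild type replicate 2 (-0.74, adjusted p = 0.0160, over a range of 0.0160 to 0.301).

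**Figure D3:**
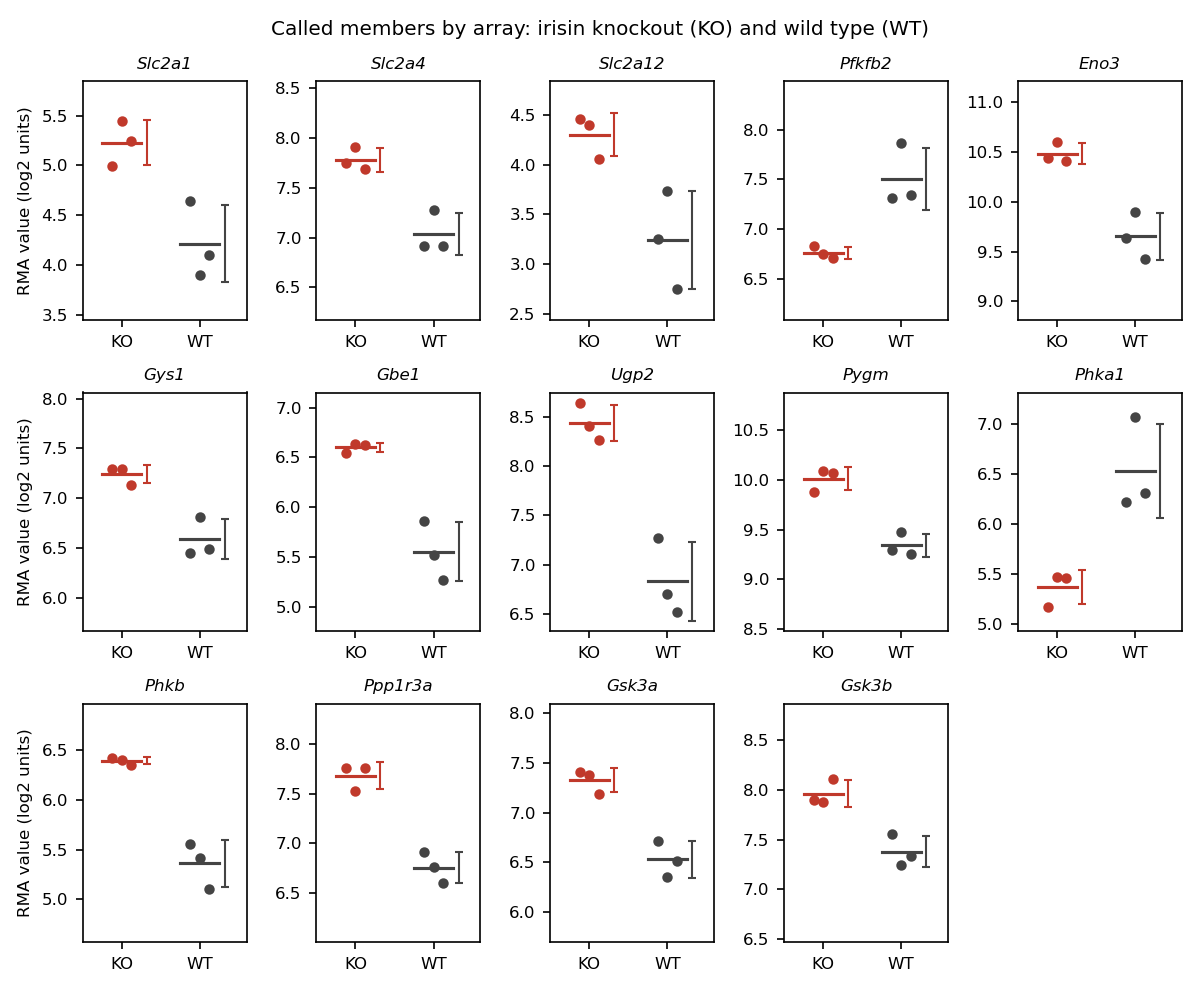
Values of the 14 called genes on each array, in log2 units, with knockout (KO, red) to the left of wild type (WT, dark). Points are arrays, horizontal lines group means and bars 1 SD, and all panels span a like height. In all 14 panels the groups are separate, with the knockout below wild type for Pfkfb2 and Phka1 and above it in the other panels.

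Genes of glycogen breakdown went both ways. Pygm, the muscle phosphorylase that releases glucose 1-phosphate from glycogen, read 9.88, 10.09 and 10.06 in knockout and 9.30, 9.47 and 9.26 in wild type. The 1.59-fold rise (0.67, SE 0.12, limma adjusted p = 0.00771) passed in all 15 alternatives (0.00399 to 0.0409). Pygb, the brain form that heart also makes, read 9.10 to 9.48 in knockout and 8.88 to 9.00 in wild type, without overlap but also without a call (0.32, adjusted p = 0.146). Pygl, the liver form, differed by -0.08.

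The subunits of phosphorylase kinase, which activates phosphorylase, were the most divided. Phka1, the alpha subunit of muscle, read 5.17, 5.47 and 5.46 in knockout against 6.22, 7.07 and 6.31 in wild type. It fell 2.25-fold (-1.17, SE 0.22, limma adjusted p = 0.00933) and stayed past the threshold in all 15 alternatives (0.00568 to 0.0451). Phkb, the beta subunit, read 6.42, 6.40 and 6.35 in knockout and 5.56, 5.42 and 5.11 in wild type, a 2.05-fold rise (SE 0.14, adjusted p = 0.00232). These subunits of 1 complex thus changed in opposite directions, each without overlap between the groups. Phkg1, the catalytic gamma subunit of muscle, differed by -0.88 with all knockout arrays (3.92 to 4.09) below all wild type arrays (4.15 to 5.32). It missed the threshold (adjusted p = 0.0611) and passed in 4 of 15 alternatives, most clearly without wild type replicate 3 (-1.24, 0.00305), the range over the alternatives being 0.00305 to 0.173. The alpha subunit of liver and other tissues, Phka2, read 4.90, 5.09 and 5.08 in knockout and 4.40, 4.49 and 4.54 in wild type and rose 1.46-fold (adjusted p = 0.0142). Phkg2, the gamma subunit best known from liver and testis, which is named here because of its role in the complex after its values were seen, differed by 0.36 and did not pass (0.0662).

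**Figure D4:**
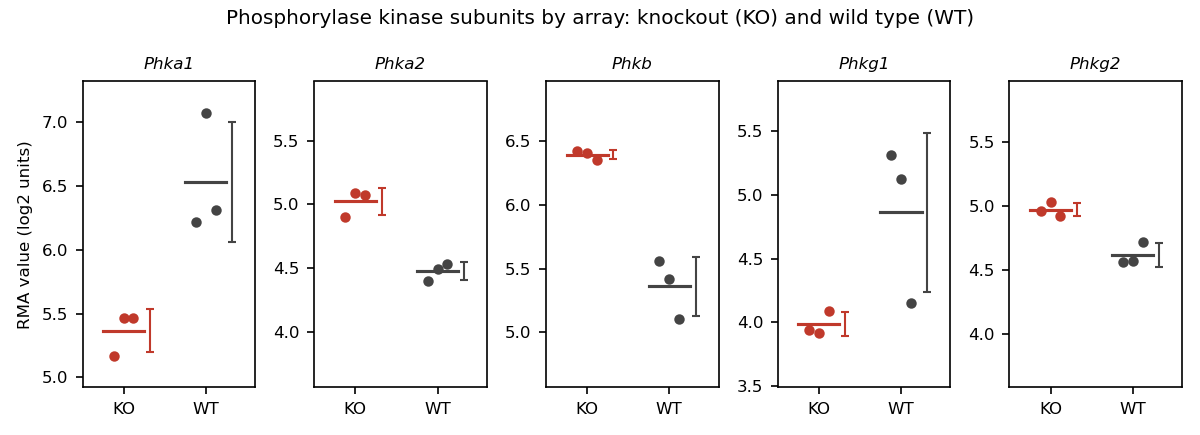
Values of the 5 phosphorylase kinase subunit genes on each array, in log2 units, knockout (KO, red) left of wild type (WT, dark). Points are arrays, lines group means and bars 1 SD. Phka1 and Phkg1 lie lower in the knockout arrays, Phka2, Phkb and Phkg2 higher, and the call was reached for Phka1, Phka2 and Phkb.

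Control genes of glycogen were higher in 3 of 4 cases, against 10.4% of all genes. All 4 lay in the brightest band by level, where 34.5% of genes were higher. Ppp1r3a encodes the subunit that holds protein phosphatase 1 on glycogen and on the sarcoplasmic reticulum of striated muscle. It read 7.75, 7.53 and 7.76 in knockout against 6.91, 6.76 and 6.60 in wild type, a 1.9-fold rise (0.93, SE 0.13, limma adjusted p = 0.00284) that passed in all 15 alternatives (0.00167 to 0.0176). Ppp1r3c, a targeting subunit of wider distribution, showed the most uneven wild type group, at 7.77, 6.30 and 5.97, while the knockout arrays held 7.07, 7.11 and 7.11. Its difference of 0.42 was not called (adjusted p = 0.554), but was 0.96 without wild type replicate 1 (0.00387, over a range of 0.00387 to 0.946).

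The kinases that restrain glycogen synthase rose as well. Gsk3a read 7.41, 7.38 and 7.19 in knockout and 6.72, 6.36 and 6.52 in wild type, and its rise (0.79, SE 0.14, limma adjusted p = 0.00595) passed in all 15 alternatives (0.00308 to 0.0326). Gsk3b read 7.90, 7.87 and 8.11 in knockout and 7.55, 7.25 and 7.34 in wild type, a 1.5-fold rise (0.58, SE 0.13, adjusted p = 0.0187). The groups were separate in both genes. The call of Gsk3b was lost after quantile normalization (0.34, adjusted p = 0.127), without any 1 knockout array (0.0517 to 0.0754) and without wild type replicate 3 (0.0535), within a range of 0.0092 to 0.127.

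A list of 54 further genes of the same pathways, of which 51 had a row, held 12 that were higher, 3 that were lower and 36 that did not pass. The share called was 29.4%, against 22.2% for genes of their bands by level and 16.6% for all genes. The most changed was G6pc3, the glucose-6-phosphatase of tissues other than liver, at 6.50, 6.06 and 6.07 in knockout against 4.60, 4.25 and 4.28 in wild type, a 3.56-fold rise (SE 0.16, limma adjusted p = 0.000479). Bsg, the partner that carries lactate transporters to the membrane, read 10.34, 10.23 and 10.18 in knockout and 9.28, 9.12 and 9.17 in wild type, 2.09-fold higher (SE 0.11, adjusted p = 0.000941). Both were fully separated between the groups. Ldhd, a mitochondrial D-lactate dehydrogenase, rose 2.06-fold, the pyruvate dehydrogenase phosphatase Pdp1 1.79-fold, and Txnip, an arrestin-like protein that lowers glucose uptake, 1.88-fold.

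Glycogen genes stood in that list too. The lysosomal alpha-glucosidase Gaa rose 1.75-fold, laforin (Epm2a), which removes phosphate from glycogen, 2.25-fold, and the phosphatase 1 catalytic subunit Ppp1cb 1.54-fold, with adjusted p of 0.014, 0.0248 and 0.0161 in limma. Hk3, a hexokinase of blood cells, fell 1.43-fold (adjusted p = 0.018) at values no higher than 2.10, below the array medians of 2.13 to 2.28. The other lower genes, named after their values were seen, were Slc16a3, a lactate exporter of glycolytic cells (-0.40, adjusted p = 0.0441), and Ldhc, the lactate dehydrogenase of testis (-0.41, 0.0355). Ldhc was dim, at or below 1.38 on every array. Without 1 knockout array the list held 4 to 7 higher genes and 0 or 1 lower. The calls of G6pc3, Bsg, Pdp1 and Ldhd, 4 of the 15, held without any 1 array. Without knockout replicate 1, 8 of the 15 were lost, including Ppp1cb (limma adjusted p = 0.0677), Epm2a (0.0635), Hk3 (0.0590), Slc16a3 (0.112) and Ldhc (0.1055). The calls of Txnip, Gaa and Phka2 held there but were lost without knockout replicate 2 (0.0594, 0.0660 and 0.0655) or 3 (0.0527, 0.0522 and 0.0580).

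A shift of a whole array cancels when 1 gene is subtracted from another on the same array, so isoform pairs were followed in this way for 10 pairs, as a description without a test. In 3 of them all knockout values lay above wild type, in 1 below, and 6 overlapped. For single genes the groups were apart in 34.1% of all genes, so 4 of 10 pairs is near that share and is not read as a shift between isoforms. Pfkm minus Pfkp was 1.85, 2.40 and 1.99 in knockout and 1.50, 1.80 and 0.95 in wild type, and Pfkm minus Pfkl also lay higher in knockout, by 0.30 on average. Pygm minus Pygb was 0.78, 0.61 and 0.82 in knockout against 0.29, 0.49 and 0.38 in wild type. Ldhb minus Ldha was -0.93, -0.66 and -0.73 in knockout and -0.45, -0.33 and -0.65 in wild type, the groups being apart by a narrow margin at the nearest arrays. Among the 6 pairs that overlapped, Pgam2 minus Pgam1 had the lowest mean change (-0.58) and Ppp1r3a minus Ppp1r3c the highest (0.51). Slc2a4 minus Slc2a1 changed by -0.27, Hk2 minus Hk1 by -0.19, Aldoa minus Aldoc by 0.24 and Gsk3a minus Gsk3b by 0.21.

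**Figure D5:**
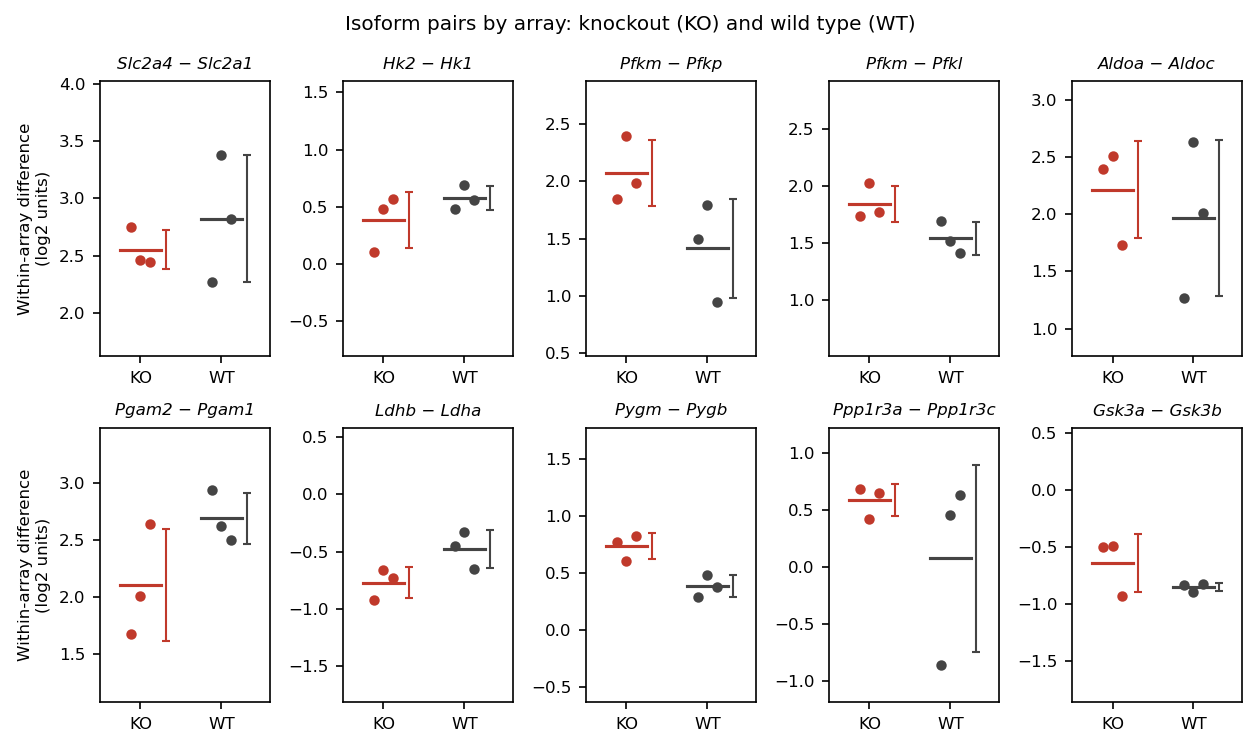
Within-array difference between the members of 10 isoform pairs, in log2 units, knockout (KO, red) left of wild type (WT, dark). Points are arrays, lines group means and bars 1 SD. The groups are apart for Pfkm with Pfkp, Pfkm with Pfkl, Pygm with Pygb and Ldhb with Ldha, and the value itself does not tell which isoform is more abundant.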

How the data were processed

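The deposited values are RMA summaries on a log2 scale, 1 per probe set and array. The submitters' processing notes name affy 1.61.0 and R 3.6.0 for this step. The log2 scale was inferred from the range of the values (0.093 to 12.96) and RMA's usual output. The labels state neither probe set definition nor genome build. Without detection calls, dim values may be background. Of 25206 rows, 23185 had 1 gene symbol in the platform annotation, 0 had several and 2021 had none; only named rows were tested.

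Groups came from the sample titles. limma 3.58.1 in R 4.3.3 (lmFit, eBayes, genotype as the only term, two-sided) was fitted to all named genes, with Benjamini-Hochberg adjustment over all of them calling genes at 0.05; dim genes were kept. With 3 arrays per group precision is limited by their number. The code was tested on simulated data. Members, roles, lists and the alternatives were chosen with earlier results of these data known. All members could be named; of other pathway genes, the called ones, at most 10 by p, to which Slc16a3, Ldhc and Phkg2 were added after their values were seen. Promoter windows and names are from RefSeq (GRCm38.p6); motifs were searched on both strands.

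The fit was repeated after quantile normalization and after centring on array medians, without the dimmest 30% and the dimmest 50% of genes, on all rows, with a trended and with a robust eBayes, with array weights, with a replicate block, and without each array. Plots were drawn with matplotlib 3.10.9.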

Additional observations from a re-analysis of the deposited data

How the results depend on the processing

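Each member was refitted under 15 alternatives, 9 settings of the fit and 6 that leave out 1 array. No called member changed sign, 9 of the 14 kept their call in all 6 fits without 1 array, and 12 kept it in all 9 other settings. Of the 26 not called, 16 kept their sign throughout. The direction of the others is not settled. After quantile normalization Aldoc was 0.0756, Ldha -0.0516, Pfkl -0.16, Pkm -0.0838 and Tpi1 -0.15. After centring, Aldoc was 0.0859, Ldhb 0.0384, Pfkfb3 0.0728, Pgam2 0.0930, Pgk1 0.0021 and Pygl 0.0347. Without 1 array, Aldoc ran from -0.27 to 0.28, Ldhb from -0.14 to 0.0541, Pfkfb3 from -0.19 to 0.10, Pfkl from -0.0856 to 0.19, Pgam2 from -0.14 to 0.12, Pgk1 from -0.28 to 0.17 and Pygl from -0.16 to 0.0719.

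Scaling moved the size of most differences. The median of all genes was -0.05 on the deposited values and 0.07 after centring, a shift of 0.11. The members' median was 0.34 after centring and 0.0723 after quantile normalization, and 0.19 to 0.32 without 1 array. Quantile normalization left 10 members higher and 2 lower, centring 13 and 2. Of all genes called, 62.8% were higher on the deposited values, 55.2% after quantile normalization and 76.4% after centring. Of the called genes of the further list the higher ones were 80.0%, 88.9% after quantile normalization (8 of 9), 93.8% after centring (15 of 16) and 93.3% without the dimmest 50% (14 of 15), with 1 lower gene in each of these. Only 31 of the 51 genes of that list remained without the dimmest 50%. By role, the median of the entry enzymes was -0.34 after quantile normalization and -0.0126 after centring. That of glycogen synthesis was 0.51 after quantile normalization and 0.60 to 0.86 without 1 array. That of lactate dehydrogenase was -0.18 after quantile normalization. What caused these shifts was not tested. Without the dimmest 50% the median of the phosphofructokinase control enzymes was -0.39. That filter removed Pfkfb4 and left the differences of Pfkfb2 (-0.74) and Pfkfb3 (-0.04) unchanged.

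Without 1 array, genes called higher among all numbered 1403 to 2570 and lower 701 to 1593, members called lower 1 to 4, and genes of the further list 4 to 14 higher and 0 to 3 lower. Fewer arrays leave the test less power. The replicate numbers did not meet the rule for pairs: deviations of same-numbered arrays correlated at 0.09, 0.048 and 0.07, and 5 of 6 arrays correlated best with their own number. With the replicate number as a block 13 members were higher, Gyg being the addition (adjusted p = 0.0250), and 2 lower. No extraction or hybridisation batch is named in the labels, and none was tested.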
